A study of Danio rerio with 6 samples.

Results

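The 66 genes described here were lower in every sall4 morphant library than in any control library, by at least 2-fold. They were chosen from zebrafish RNA-seq counts by level alone. Each library's counts were scaled to CPM (the count over the library's total, times 1000000). A gene was taken if its lowest control value was at least 2 CPM and at least 2 times its highest morphant value. Of 32520 genes in the count table, 13031 had a lowest control value of at least 2 CPM, and 66 of these (0.506%) met the fold condition. The mirrored condition, with morphants higher, was met by 44 of 11951 genes (0.368%). Because the morphant and control levels chose the genes, those levels are given below as a description, with no test.

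Sall4 is a zinc finger transcription factor of early embryonic cells, and its gene was targeted with a morpholino, a short synthetic oligomer complementary to an RNA that stops the RNA from being translated or spliced. RNA came from the caudal end of zebrafish embryos at 16 hours post fertilisation, cut behind the most recently formed somite. Morphants 1 to 3 had received the sall4 morpholino, control 1 a scrambled morpholino, and controls 2 and 3 no injection. The sources used here do not give the strain, the embryos per library or separate clutches, so the spread between libraries may be technical in part. A morpholino acts transiently and in all tissues, so no cell type was targeted on its own. The sall4 transcript stood at 1166, 1427 and 1299 CPM in controls 1 to 3 and at 797, 1512 and 1355 CPM in morphants 1 to 3. The groups overlapped, and since a translation block need not lower a transcript, this level does not check the knockdown.

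The caudal end of an embryo at this stage holds the tailbud, whose progenitors feed the spinal cord and the presomitic mesoderm, together with newly formed neural tube, premigratory neural crest, notochord and skin. Wnt signals keep the tailbud progenitors going, and secreted antagonists such as Notum limit how far those signals reach. In the neural tube, dividing progenitors express Sox and Nkx transcription factors and the filament protein Gfap, motile cilia line the central canal, and the crest genes sox9b and sox10 mark the dorsal edge.

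Total counts ranged from 18626513 to 42423495 per library. All 66 genes passed the filter on low counts. With edgeR's quasi-likelihood test over 17803 genes, 0 of the 66 passed an adjusted p of 0.05 (adjusted p from 0.054 to 0.38), and 0.0% of all tested genes were called lower. At an unadjusted edgeR p under 0.05 all 66 were lower, beside 924 of all tested genes (5.19%). DESeq2 called 61 of the 66, which is 92.4% of them, beside 154 of 21380 genes called lower (0.72%). The 61 made up 39.6% of its lower calls. Those not called by DESeq2 were ak7a, armh1, ccdc28a, ccdc92 and pou3f3a. In the opposite direction edgeR called 5 of all genes (0.0281%) and DESeq2 180 (0.842%). Without morphant 2, edgeR called 1534 genes, of which 792 were lower, 63 of them among the 66. Since the same contrast chose the genes, nothing is read from these counts. On CPM every morphant lay below every control in 1979 of the 17803 genes (11.1%), and above in 952 (5.35%). These shares depend on the scaling. With library sizes scaled by edgeR's TMM factors, 1635 genes were below (9.18%) and 1383 above (7.77%).

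Tailbud markers were abundant in all libraries, and the markers otx2b, en2a, egr2b and rx3 of head tissue outside the cut stayed under 5 CPM, while emx3 stood at 43.6 to 76.5 CPM. Markers of the cell types in the piece did not all run evenly over the libraries. The summed level of the neural tube markers sox3 and sox19b was 261, 281 and 243 CPM in controls 1 to 3 and 197, 103 and 159 CPM in morphants 1 to 3, with every morphant below every control. Taken alone, sox3 and sox19b were each below all controls in all morphants (edgeR adjusted p = 0.56 and 0.70). With TMM-scaled library sizes the groups overlapped for sox19b, where morphant 1 was above all controls, but not for sox3. The summed level of the epidermal markers krt4 and tp63 was 4327 to 7427 CPM in controls and 1708, 4868 and 1799 CPM in the morphants. Most of this sum was krt4, which overlapped between the groups. Taken alone, tp63 was below all controls in all morphants, at 105, 92.0 and 104 CPM against 156, 124 and 145 CPM (edgeR adjusted p = 0.64). With TMM-scaled library sizes, the groups overlapped for tp63 too. The blood markers gata1a and hbae3 summed to 13.9, 149 and 103 CPM in controls and to 662, 203 and 336 CPM in morphants, all morphants being higher. The summed level of the tailbud markers tbxta, msgn1, cdx4 and hoxc13a overlapped, at 4494 to 7005 CPM in controls and 4096 to 8558 CPM in morphants. Taken alone, msgn1, cdx4 and hoxc13a overlapped too. By contrast tbxta was below all controls in all morphants, at 564, 521 and 488 CPM against 643, 772 and 659 CPM (edgeR adjusted p = 0.70). With TMM-scaled library sizes the groups overlapped for tbxta as well. In whole pieces of tissue, fewer cells of a type and less RNA per cell cannot be told apart, and the part that tissue makeup has in the levels below was not tested.

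By known function, 13 of the 66 genes were placed with neural progenitors and neurons (19.7%), 11 with cilia (16.7%), 4 with Wnt antagonism and 7 with other signalling. A further 3 belong to neural crest and pigment cells, 4 to matrix and cell adhesion, 3 to muscle and actin, and 6 are enzymes or handle RNA or protein. Another 8 have a name but were given no class, and 7 carry only a clone name. These classes were assigned after the genes were known. Control levels were mostly low. The mean over the controls was under 5 CPM in 24 genes, from 5 to 10 CPM in 20, from 10 to 20 CPM in 9, from 20 to 50 CPM in 7, and above 50 CPM in 6. The median was 5.84 CPM. The mean control level was 2.69 to 51.3 times the mean morphant level, with a median of 3.78. This ratio was under 3 in 9 genes, from 3 to 4 in 31, from 4 to 6 in 20, from 6 to 10 in 4, and above 10 in tyrp1a and slc1a2b alone.

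**Figure D1:**
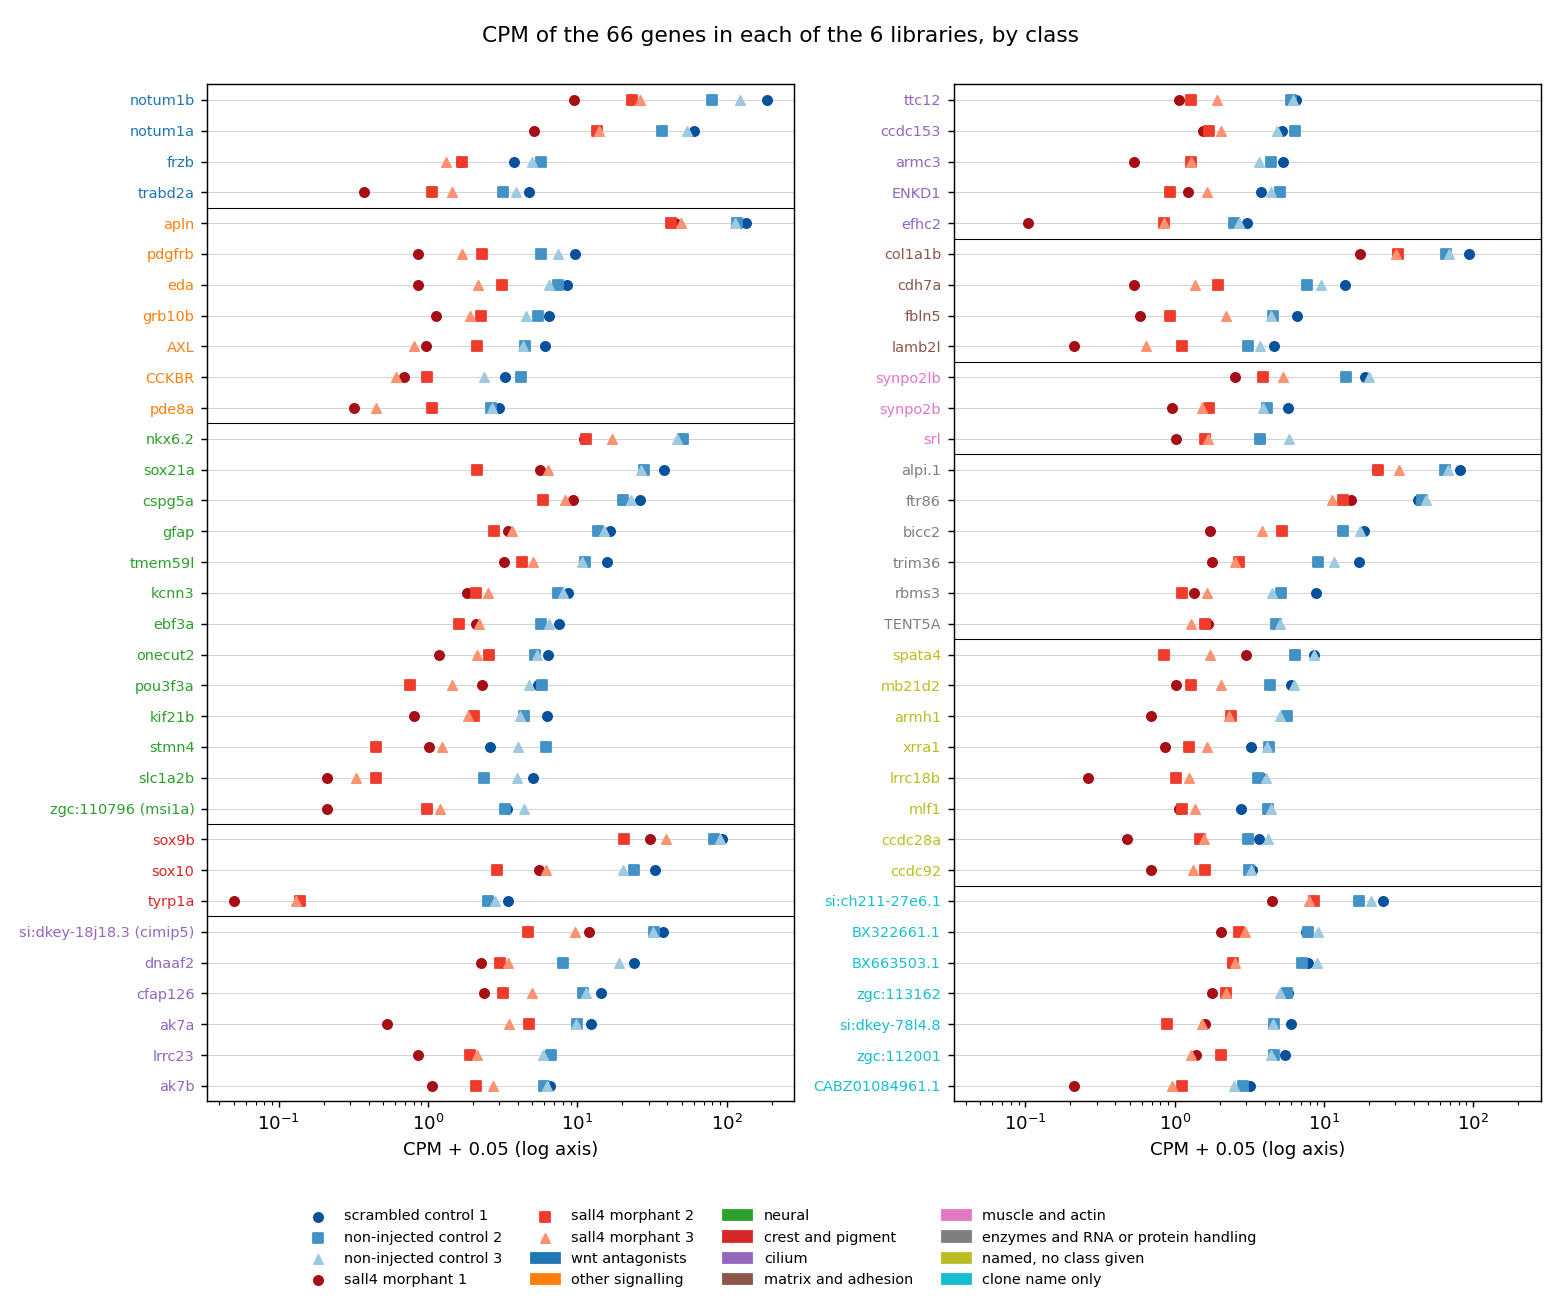
CPM of each of the 66 genes (a row for each gene, log axis of CPM + 0.05) in the 6 libraries, with blue marks for controls and red marks for morphants and gene names coloured by class. In every row the red marks lie left of the blue ones, which is what chose the genes, and morphant 1 is the leftmost mark in 46 of the 66 rows.

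The highest control level among the 66, on CPM and per transcript length, belonged to a Wnt antagonist. Notum removes the lipid that Wnt proteins need to bind their receptors, and zebrafish has the paralogues notum1a and notum1b. The level of notum1b (ENSDARG00000117145) was 187, 79.2 and 122 CPM in controls 1 to 3 and 9.39, 23.1 and 26.05 CPM in morphants 1 to 3. Control 1, injected with the scrambled morpholino, was the highest and morphant 1 the lowest, and the controls differed among themselves by more than for most of the set. The ratio of the means was 6.64, and the lowest control was 3.04 times the highest morphant. Its paralogue notum1a (ENSDARG00000031126) had the same order of libraries, with 60.8, 36.5 and 53.8 CPM in controls and 5.05, 13.5 and 13.8 CPM in morphants and a ratio of 4.67. How the counting treated reads that fit both paralogues was not given in the sources used, so the split between them is uncertain. In the deposited FPKM, which divide the count by gene length and library scale, notum1b stood at 64.2 ± 27.4 FPKM (SD, n = 3) in controls and notum1a at 23.7 ± 6.68 FPKM.

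Per length the other antagonists were lower in controls, with frzb at 1.66 ± 0.317 FPKM and trabd2a at 2.74 ± 0.621 FPKM (SD, n = 3). Frzb, a secreted protein that binds Wnts, is encoded by frzb, which was measured at 3.70, 5.62 and 4.88 CPM in controls and 1.61, 1.64 and 1.27 CPM in morphants. Here control 2 was the highest and morphant 3 the lowest. The gene trabd2a encodes a membrane protease that, in frogs and human cells, clips the amino end of Wnts. It stood at 4.67, 3.104 and 3.82 CPM in controls and 0.322, 1.02 and 1.39 CPM in morphants, with morphant 1 far under the other morphants. The ratios of means were 3.14 for frzb and 4.24 for trabd2a. Pathway genes outside the set were ordered in several ways. Expression of axin2, a feedback target of Wnt signalling, ranged from 19.5 to 155 CPM across morphants and from 59.7 to 75.1 CPM across controls (log2 fold change 0.07, SE 0.58, edgeR adjusted p = 0.97). The antagonist sfrp1a was higher in all morphants than in all controls, at 109 ± 1.63 against 79.4 ± 1.39 CPM (SD, n = 3), without passing the test (log2 fold change 0.57, edgeR adjusted p = 0.52). So were the antagonists wif1 (log2 fold change 0.68, edgeR adjusted p = 0.44) and sfrp1b (0.79, adjusted p = 0.55). The mean level of wif1 was 64.3 CPM in controls and 96.8 CPM in morphants. Of 72 tested Wnt pathway genes, members included, 27.8% were below all controls and 8.33% above, beside 11.1% and 5.35% of all tested genes. The antagonist dkk1b overlapped between the groups. Below all controls in all morphants were, among others, the Wnt target sp5a and the nuclear effector tcf7, named after their values were seen. The level of sp5a was 168, 169 and 202 CPM in controls and 107, 64.9 and 116 CPM in morphants (log2 fold change −0.77, edgeR adjusted p = 0.53). That of tcf7 was 89.2, 58.3 and 72.0 CPM in controls and 31.2, 39.8 and 36.2 CPM in morphants (log2 fold change −0.95, edgeR adjusted p = 0.33).

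The other signalling genes included the ligands apln and eda. Apelin, the ligand of the Aplnr receptors that guides early mesoderm and vessel cells, is encoded by apln (ENSDARG00000053279). Its level was 134, 118 and 114 CPM in controls and 44.7, 42.1 and 49.4 CPM in morphants. The 3 morphants lay close together, and the ratio of means of 2.69 was the smallest of the 66. The receptor gene aplnra was also below all controls in the morphants, at 295, 243 and 298 CPM against 363 to 390 CPM, but by a small step (log2 fold change −0.31, edgeR adjusted p = 0.69), and aplnrb overlapped. With TMM-scaled library sizes the groups overlapped for aplnra too. Ectodysplasin, a ligand of skin appendage development, is encoded by eda. It stood at 8.52, 7.33 and 6.36 CPM in controls and 0.805, 3.06 and 2.11 CPM in morphants, with morphant 1 the lowest. Its receptor gene edar stood at 2.17 to 3.09 CPM in controls and at 0.161, 1.90 and 0.438 CPM in morphants (log2 fold change −1.58 with an SE of 0.68, edgeR adjusted p = 0.51).

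Receptors and signal relays made up the rest of that class. The receptor of platelet-derived growth factor pdgfrb was measured at 9.53, 5.62 and 7.33 CPM in controls and 0.805, 2.26 and 1.63 CPM in morphants. The receptor tyrosine kinase gene AXL, whose ligand is Gas6, stood at 5.98, 4.39 and 4.29 CPM and 0.913, 2.08 and 0.756 CPM in the same order. Morphant 2 was the highest morphant for both. The peptide receptor gene CCKBR stood at 3.25, 4.12 and 2.31 CPM in controls and 0.644, 0.930 and 0.557 CPM in morphants. The adaptor gene grb10b, whose mammalian counterpart dampens insulin receptor signals, and the phosphodiesterase gene pde8a, which degrades cyclic AMP, had ratios of 3.17 and 4.83. Across these 7 genes the ratio of means ran from 2.69 to 4.83. The paralogues pdgfra and grb10a and the ligand genes pdgfba, pdgfbb and gas6 overlapped between the groups.

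The neural genes included transcription factors of spinal cord progenitors. The homeobox gene nkx6.2 (ENSDARG00000104735), active in ventral progenitors, was measured at 50.05, 50.8 and 46.7 CPM in controls and 11.1, 11.3 and 17.1 CPM in morphants. The controls agreed closely, morphants 1 and 2 were alike, and morphant 3 was the highest of them, with a ratio of means of 3.74. Its relative nkx6.1, a gene of the same progenitors, overlapped between the groups, at 33.6 to 49.3 CPM in controls and 28.7 to 35.1 CPM in morphants (log2 fold change −0.20, edgeR adjusted p = 0.80). The progenitor gene sox21a (ENSDARG00000031664) stood at 37.9, 27.9 and 26.5 CPM in controls and 5.58, 2.08 and 6.28 CPM in morphants, the lowest being morphant 2. Its ratio of 6.62 was among the largest of the set. The paralogue sox21b did not meet the 2-fold condition, but its morphants, at 5.58, 8.99 and 9.78 CPM, lay under its controls, at 19.1 to 26.6 CPM (log2 fold change −1.41, SE 0.29, adjusted p = 0.20 by edgeR and 0.0059 by DESeq2).

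Genes of radial glia and their products followed. The intermediate filament gene gfap (ENSDARG00000025301) was measured at 16.4, 13.7 and 14.97 CPM in controls and 3.38, 2.7 and 3.58 CPM in morphants, a ratio of 4.66. Both groups were tight, and the lowest control was 3.83 times the highest morphant. The glutamate transporter gene slc1a2b (ENSDARG00000102453), used by glia to clear transmitter, stood at 5.02, 2.30 and 3.89 CPM in controls and 0.161, 0.398 and 0.278 CPM in morphants. These morphant levels rest on 3, 9 and 7 counts. Over summed counts, 307 in controls and 19 in morphants, the ratio was 13.3, with an exact 95% interval for counting error alone from 8.35 to 22.3. The interval pools the libraries of each group, without the spread between them, and rests on the counts that chose the gene. It describes how few the counts are and supports no difference. The related transporter slc1a3a stood at 18.6 to 19.4 CPM in controls and 9.99, 15.6 and 15.9 CPM in morphants, a smaller step (log2 fold change −0.39, edgeR adjusted p = 0.63). The glutamine synthetase gene glula, another gene of glia, was higher in all morphants, at 12.7 to 52.9 CPM against 7.15 to 11.3 CPM (log2 fold change 2.06, SE 0.56, adjusted p = 0.31 by edgeR and 0.023 by DESeq2). With TMM-scaled library sizes morphant 2 fell among the controls for glula.

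Neuronal regulators and neuronal products made up the rest of the neural class. The regulators of neuron differentiation ebf3a, onecut2 and pou3f3a had mean control levels of 6.50, 5.57 and 5.29 CPM and ratios of 3.40, 2.92 and 3.64. A second row with the name ebf3a held 1.93 to 2.14 CPM in controls and 0.483 to 1.07 CPM in morphants, under the control floor. The chondroitin sulphate proteoglycan gene cspg5a stood at 26.02, 20.1 and 22.8 CPM in controls and 9.23, 5.80 and 8.27 CPM in morphants. The potassium channel gene kcnn3 stood at 8.62, 7.38 and 7.99 CPM and 1.77, 2.04 and 2.47 CPM, with little spread inside either group. For the stathmin gene stmn4, whose product binds tubulin in neurons, the levels were 2.54, 6.15 and 3.96 CPM in controls and 0.966, 0.398 and 1.19 CPM in morphants. Here it was control 1 that was the lowest control, and morphant 2 the lowest morphant. The kinesin gene kif21b and the membrane protein gene tmem59l had ratios of 3.23 and 3.03. The clone zgc:110796, which the reference table names msi1a, a Musashi RNA-binding protein gene, stood at 3.35, 3.21 and 4.31 CPM in controls and 0.161, 0.930 and 1.15 CPM in morphants.

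Neural crest and pigment genes were few but spanned the widest range of ratios. The crest and cartilage regulator sox9b (ENSDARG00000043923) was measured at 93.0, 82.2 and 90.4 CPM in controls and 30.6, 20.4 and 39.0 CPM in morphants, a ratio of 2.95. Its paralogue sox9a went the opposite way in level, at 25.3 to 34.5 CPM in controls and 43.9, 39.3 and 65.0 CPM in morphants, without passing the test (log2 fold change 0.91, SE 0.31, edgeR adjusted p = 0.40). The crest regulator sox10 (ENSDARG00000077467) stood at 33.01, 24.0 and 20.1 CPM in controls and 5.48, 2.83 and 6.08 CPM in morphants, a ratio of 5.36. The earlier crest regulator foxd3 and the crest marker crestin were below all controls in all morphants by smaller steps, with log2 fold changes of −0.73 and −1.04 (edgeR adjusted p = 0.50 and 0.35).

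The pigment enzyme gene tyrp1a (ENSDARG00000029204) had the widest gap of the 66. It gave 67, 46 and 117 counts in controls 1 to 3, which is 3.40, 2.46 and 2.76 CPM, and 0, 2 and 2 counts in morphants 1 to 3. Over summed counts, 230 in controls and 4 in morphants, the ratio was 47.2, with an exact 95% interval for counting error alone from 18.2 to 174.7. This interval pools the libraries of each group and leaves out the spread between them. Because the same counts chose the gene, its place above 1 supports nothing. Other genes of pigment cells were mostly scarce. The pigment matrix gene pmela overlapped between the groups, at 1.37, 1.66 and 0.943 CPM in controls and 1.83, 2.75 and 1.19 CPM in morphants (log2 fold change 0.63, edgeR adjusted p = 0.63). The paralogue tyrp1b gave no CPM above 0.0443 in any library, dct was at 0 in all 6, and tyr and the regulator mitfa stood under 1 CPM in every library. For tyr and mitfa every morphant was below every control, at levels too low for the test.

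**Figure D2:**
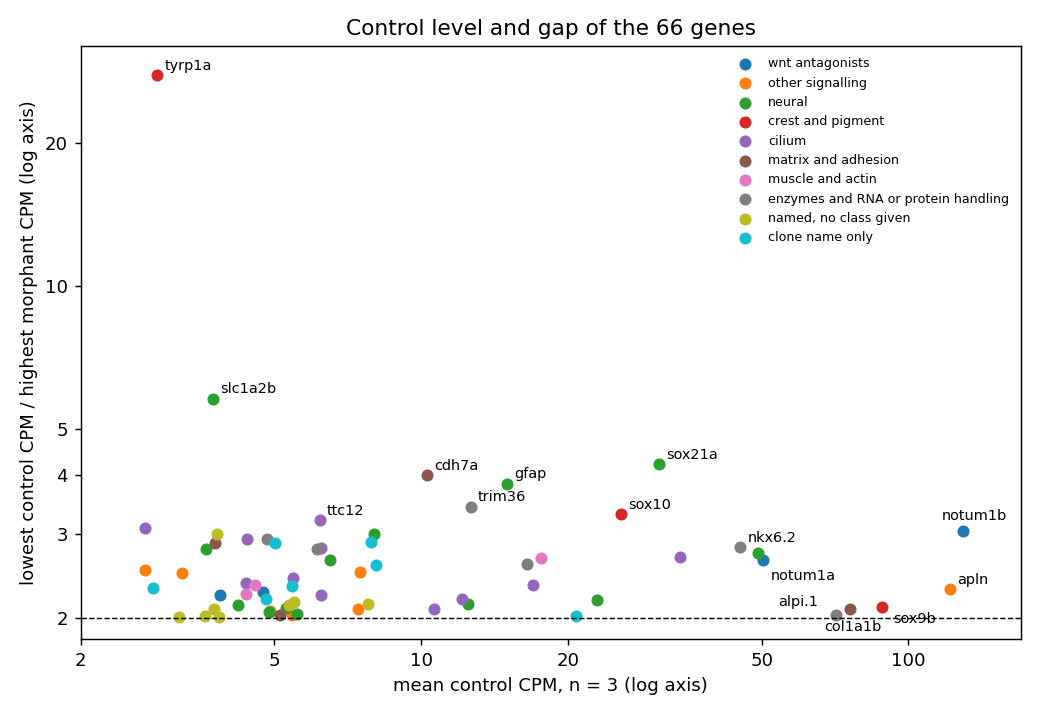
Mean control CPM (x axis, log scale, n = 3 libraries) against the lowest control CPM divided by the highest morphant CPM (y axis, log scale) for each of the 66 genes, coloured by class, with a dashed line at the condition of 2. Most genes sit near the line, while tyrp1a (27.8), slc1a2b (5.77), sox21a (4.21) and cdh7a (3.99) stand highest above it.

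Cilium genes formed the second largest class. Motile cilia beat by dynein arms sliding along doublet microtubules, with radial spokes and docking proteins between them. The clone si:dkey-18j18.3, named cimip5 in the reference table after a microtubule inner protein of cilia, had the highest control level of the class per length (17.4 ± 1.78 FPKM, SD, n = 3) and stood at 37.7, 32.5 and 31.8 CPM in controls and 11.9, 4.65 and 9.54 CPM in morphants. The dynein arm assembly gene dnaaf2 (ENSDARG00000103132) stood at 24.0, 7.92 and 18.9 CPM in controls and 2.201, 2.97 and 3.38 CPM in morphants. Its controls were the most uneven of the class, control 2 being the lowest. The ratio of means was 5.95. A second gene of dynein arm assembly, ttc12, stood at 6.49, 5.99 and 6.11 CPM in controls and 1.02, 1.24 and 1.87 CPM in morphants.

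Other cilium genes encode parts of the axoneme. The gene cfap126, which encodes Flattop, a protein of motile cilia studied in mouse, was measured at 14.3, 10.8 and 11.3 CPM in controls and 2.31, 3.14 and 4.93 CPM in morphants. The radial spoke gene lrrc23 stood at 6.29, 6.63 and 5.80 CPM and 0.805, 1.86 and 2.07 CPM. Morphant 1 was the lowest library for both. The adenylate kinase paralogues ak7a and ak7b, enzymes of the cilium, had ratios of 3.70 and 3.27. In ak7a the level was 0.483, 4.69 and 3.46 CPM in morphants against 12.2, 9.95 and 9.76 CPM in controls, so that morphant 1 stood well apart. The microtubule-binding gene efhc2 stood at 2.99, 2.46 and 2.66 CPM in controls and 0.0537, 0.797 and 0.795 CPM in morphants, where morphant 1 gave 1 count. The nexin-dynein regulatory gene ccdc153, called drc12 in the reference table, and the genes armc3 and ENKD1 had ratios of 3.19, 4.46 and 3.59. Over the 11 genes the ratio ran from 3.19 to 5.95, and morphant 1 was lowest in 9.

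Cilium genes outside the set included some below all controls and others that overlapped. The regulators of motile cilia foxj1a and foxj1b had log2 fold changes of −1.06 and −1.13 (edgeR adjusted p = 0.36 and 0.29). The radial spoke gene rsph9 stood at 6.63 to 9.64 CPM in controls and 1.72, 1.24 and 3.78 CPM in morphants (log2 fold change −1.71 with an SE of 0.48, adjusted p = 0.33 by edgeR and 0.048 by DESeq2). The assembly genes dnaaf1 and dnaaf3 were also below all controls, while dnaaf4 overlapped.

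Matrix and adhesion genes numbered 4. The collagen chain gene col1a1b (ENSDARG00000035809) stood at 93.8, 65.5 and 68.2 CPM in controls and 17.5, 31.5 and 30.3 CPM in morphants, a ratio of 2.87. The partner chains col1a1a and col1a2 had the same order of groups, and were higher per length in controls, at 379 and 69.1 FPKM against 14.2. The level of col1a1a was 3479, 1245 and 1774 CPM in controls and 583, 794 and 979 CPM in morphants (log2 fold change −1.38 with an SE of 0.41, edgeR adjusted p = 0.35). Reads could be shared between col1a1a and col1a1b, so the split is uncertain. The cadherin gene cdh7a (ENSDARG00000023542), active in neural tissue in vertebrates, stood at 13.8, 7.60 and 9.43 CPM in controls and 0.483, 1.90 and 1.31 CPM in morphants, and its ratio of 8.33 was the third largest of the set. The elastic fibre gene fbln5 was measured at 6.59, 4.50 and 4.34 CPM and 0.537, 0.885 and 2.15 CPM, and the laminin chain gene lamb2l at 4.56, 3.05 and 3.70 CPM and 0.161, 1.06 and 0.597 CPM. In all 4 genes control 1 was the highest library and morphant 1 the lowest. The fbln5 relative fbln1 was below all controls, at 16.4, 16.5 and 13.04 CPM in controls and 0.591, 8.81 and 4.77 CPM in morphants (log2 fold change −1.71, edgeR adjusted p = 0.47). Of the other relatives, lamb1a, lamb2 and efemp2a overlapped between the groups. In contrast efemp2b was above all controls, with means of 212.5 CPM in controls and 397.8 CPM in morphants (edgeR adjusted p = 0.28). So was the collagen gene col18a1b, with means of 1.945 and 36.8 CPM (edgeR adjusted p = 0.042). Of 119 tested genes on the matrix list, 13.45% were below all controls and 5.04% above, beside 11.1% and 5.35% of all tested genes. On TMM-scaled levels these shares were 11.76% and 9.24%, beside 9.18% and 7.77%.

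Enzymes and regulators of RNA and protein numbered 6. The alkaline phosphatase gene alpi.1 (ENSDARG00000015273) stood at 81.7, 64.3 and 67.2 CPM in controls and 22.5, 22.8 and 31.7 CPM in morphants. Its paralogue alpi.2, at 1.23 to 2.43 CPM in controls and 0.354 to 0.752 CPM in morphants, was also below all controls, and the tissue-nonspecific alpl overlapped. The TRIM family gene ftr86 stood at 42.3, 45.5 and 47.9 CPM in controls and 15.03, 13.4 and 11.2 CPM in morphants, with both groups tight. The ubiquitin ligase gene trim36, needed for dorsal axis formation in frogs, stood at 17.1, 9.10 and 11.7 CPM and 1.72, 2.66 and 2.47 CPM, a ratio of 5.54. The RNA-binding genes bicc2 and rbms3 had ratios of 4.64 and 4.65. For TENT5A, a poly(A) polymerase gene, the levels were 4.72, 4.71 and 5.04 CPM in controls and 1.61, 1.55 and 1.23 CPM in morphants.

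Muscle and actin genes were synpo2lb, synpo2b and srl. The actin-binding gene synpo2lb stood at 18.7, 14.0 and 20.1 CPM in controls and 2.47, 3.85 and 5.25 CPM in morphants, a ratio of 4.56, and its relative synpo2b at 5.73, 4.12 and 3.84 CPM and 0.913, 1.64 and 1.47 CPM. Sarcalumenin, a calcium-binding protein of the sarcoplasmic reticulum, is encoded by srl, with a ratio of 3.16. Morphant 1 was the lowest library in all 3. The myogenic and somite markers myod1 and meox1 were not in the set, and their sum overlapped between the groups, at 239.8 to 393 CPM in controls and 238 to 317 CPM in morphants. The list of somite and muscle genes leaned the other way from the 3 genes. Of its 50 tested genes, srl included, 10 were above all controls in all morphants and 6 below (median log2 fold change 0.21). Over all tested genes 952 were above and 1979 below. On TMM-scaled levels the list had 11 above and 4 below, beside 1383 above and 1635 below over all tested genes. On this list DESeq2 called 3 genes higher and 1 lower, and edgeR called 0 in either direction.

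The genes given no class were spata4, mb21d2, armh1, xrra1, lrrc18b, mlf1, ccdc28a and ccdc92. Their mean control levels ran from 3.18 to 7.79 CPM and their ratios from 2.76 to 4.79, and morphant 1 was the lowest library in 7. The row named ccdc28a in the file carries the name ECT2L in the reference table, and a second row named ccdc28a held 0.862, 1.93 and 1.18 CPM in controls and 1.61, 1.46 and 1.11 CPM in morphants, which overlap. The 7 clone-named genes had mean control levels of 2.81 to 20.8 CPM and ratios of 2.699 to 3.94.

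The condition cut through a continuum of values. Just inside the fold of 2 were ccdc92 at 2.003 and xrra1 at 2.008, and a clone at 2.01. Just outside it were DYNLT1 at 1.99 and snai1b, a crest gene, at 1.98, and a clone at 1.96. At the control floor, slc1a2b (lowest control 2.30 CPM) and CCKBR (2.31 CPM) were just inside, while the cilium-related genes capslb (1.98 CPM) and ccdc151 (1.93 CPM) met the fold and lay just outside.

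The libraries took unequal parts in the set. Control 1, the scrambled-injected library, was the highest control in 45 of the 66 genes (68.2%), against 40.8% of the 13031 genes above the floor. Control 2 was the highest in 10 (15.2%, against 48.1%) and control 3 in 11 (16.7%, against 11.1%). Morphant 1 was the lowest morphant in 46 (69.7%), against 55.2% of the genes above the floor. Morphant 2 was the lowest in 14 (21.2%, against 32.2%) and morphant 3 in 6 (9.09%, against 12.6%). The median log2 difference of the 66 from the control mean was −2.26, −1.76 and −1.65 in morphants 1 to 3, beside −0.38, 0.10 and −0.13 for all genes above the floor. Summed over the 66, the level was 1289, 970.5 and 1070.0 CPM in controls and 254, 297 and 357 CPM in morphants.

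Spread and length were close to those of other genes. The median SD of log2 CPM was 0.22 in controls and 0.54 in morphants for the 66 genes, and 0.23 and 0.55 for all genes above the floor. The median length relative to all genes was 1.03 against 1.07. The rule asks for a 2-fold gap to every control, so the following ranges start at 2 by construction and support nothing. The scrambled-injected control was 2.008 to 38.4 times the highest morphant, with a median of 2.97, and the lower non-injected control was 2.003 to 27.8 times, with a median of 2.55. By the rule's construction, leaving out a library can only add genes: the count was 373 without morphant 2, 166 without control 2, 143 without morphant 3, and 75 to 85 without each of the others. With the scrambled-injected library as the only control it was 385.

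Library scaling moved the membership. With TMM-scaled library sizes 48 genes met the condition, and all 48 were among the 66. With the trend on gene length removed there were 78, of which 55 were among the 66. On the deposited FPKM values there were 39, sharing 28, and 18 of the 38 genes not kept missed only the floor of 2. Met on all 4 scales, which also include median-of-ratios size factors, were 24 of the 66, among them notum1a, notum1b, nkx6.2, sox21a, gfap, sox10, cdh7a, trim36, bicc2, ftr86 and dnaaf2. Met on none of the other scales were cspg5a, pou3f3a, apln, ccdc28a, col1a1b and alpi.1. Among others, frzb, trabd2a and sox9b met it only with the length trend removed. By class, the genes kept on all 4 scales were 6 of 11 for cilia, 5 of 6 for enzymes and RNA or protein handling, and 4 of 13 for neural genes. They were 2 of 4 Wnt antagonists, 1 of 3 crest and pigment genes and 1 of 4 matrix and adhesion genes. No gene of other signalling (0 of 7) or of muscle and actin (0 of 3) was kept.

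**Figure D3:**
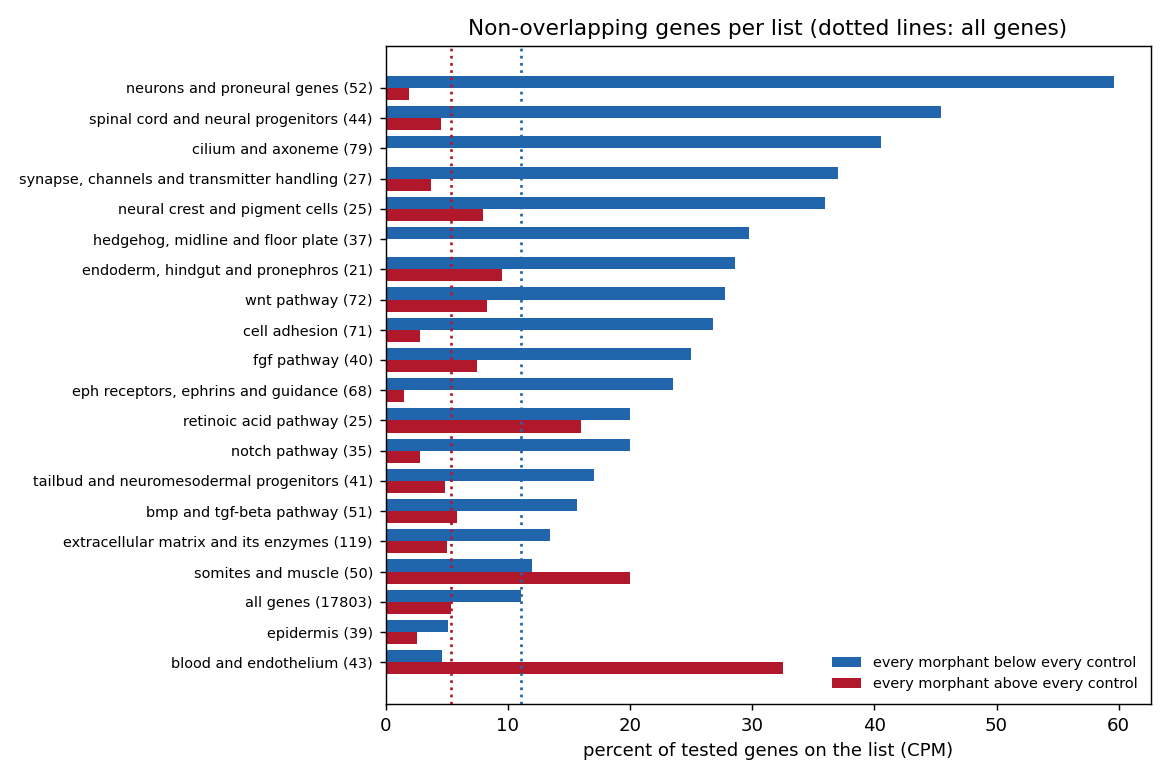
Percent of tested genes on each of 19 gene lists and among all genes (number tested in brackets) in which every morphant CPM was below every control CPM (blue) or above (red), with dotted lines at the values for all genes. Neuronal, spinal cord and cilium lists reach furthest to the right in blue, and the blood and endothelium list in red.

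The 66 genes were set beside 19 gene lists of the tissue's pathways and cell types, on which 17 of them stand and 49 do not. Of the list genes above the control floor, the set took 3 of 18 for neural crest and pigment cells (16.7%), 4 of 36 for spinal cord and neural progenitors (11.1%), and 1 of 11 for synapse and channel genes (9.09%). That 1 gene is slc1a2b, which is also among the 4 on the spinal cord list. It took 3 of 60 Wnt pathway genes (5.0%), 3 of 61 cilium genes (4.92%), 1 of 40 somite and muscle genes (2.5%), 1 of 43 neuronal genes (2.33%), 1 of 50 adhesion genes (2.0%) and 1 of 96 matrix genes (1.04%). The share over all genes was 0.506%. The lists were chosen with earlier results of these data known, and each share rests on few genes, so no enrichment is read from them. No member stood on the lists of the FGF, BMP, Notch, hedgehog, retinoic acid and Eph pathways, the tailbud, blood, endoderm or epidermis.

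Counts of genes with every morphant below every control are given here for 5 of the lists, members included. Such genes were not particular to these 5. On CPM their share was 37.0% for synapse and channel genes, 29.7% for hedgehog and midline genes and 28.6% for endoderm genes. It was 26.8% for adhesion and 25.0% for FGF genes. Of all lists, only blood and endothelium (4.65%) and epidermis (5.13%) lay under the share over all tested genes. On CPM, such genes were the majority of the tested genes only on the neuronal list (59.6%). On TMM-scaled levels they were the majority on no list, the neuronal list having 48.1%. The shares over all tested genes were 11.1% below and 5.35% above. Of 52 tested neuronal genes, 31 had every morphant below every control and 1 above, with a median log2 fold change of −0.67. Among 44 spinal cord progenitor genes 20 were below and 2 above (median −0.43), and among 79 cilium genes 32 were below and 0 above (median −0.65). For the 25 crest and pigment genes 9 were below and 2 above (median −0.24), and for the 72 Wnt pathway genes 20 were below and 6 above (median −0.14). Over all tested genes the median log2 fold change was 0.12. On TMM-scaled levels the counts below were 25 for the neuronal, 16 for the progenitor and 30 for the cilium list. Of all tested genes 9.18% were then below and 7.77% above. The libraries were unequal in this. Over cilium genes above the control floor, the median log2 difference from the control mean was −1.41 in morphant 1, −0.09 in morphant 2 and −0.60 in morphant 3, while for neuronal genes it was −1.07, −0.71 and −0.75. For all genes above the floor it was −0.38, 0.10 and −0.13. By edgeR 0 genes of these 5 lists passed in the lower direction, with 22, 10, 23, 8 and 15 at an unadjusted p under 0.05 in the order given (5.19% of all tested genes), and DESeq2 called 7, 6, 5, 4 and 3 lower (0.72% of all genes).

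**Figure D4:**
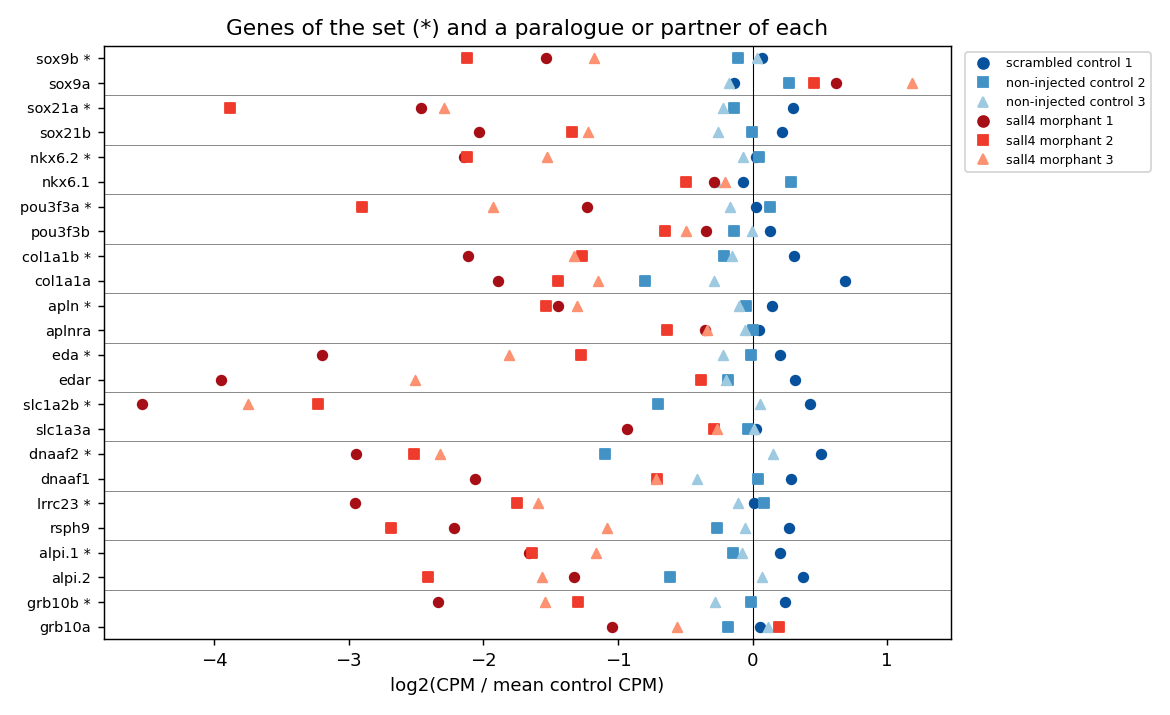
Log2 of CPM over the mean control CPM (x axis) in the 6 libraries for genes of the set, marked with an asterisk, each above a paralogue or partner gene that is not in the set. The red morphant marks lie far left for the genes of the set, lie right of the controls for sox9a, and mix with the blue control marks for nkx6.1 and grb10a. The partners drawn were picked by hand, and most of them were below all controls in all morphants. Among the 55 tested partners 23 were below, 4 above and 28 overlapped.

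Paralogues, receptors and pathway partners of the 66 were chosen by hand after the genes were known. Of 72 such genes 70 were found in the table, none of them a member, and 55 were tested. Every morphant was below every control in 23 of the 55 (41.8%, beside 11.1% of all tested genes), above in 4 (7.27%, beside 5.35%), and the groups overlapped in 28. The median log2 fold change was −0.29, beside 0.12 for all tested genes. By edgeR 0 of the 55 passed, with 18 at an unadjusted p under 0.05, of which 14 were lower, and DESeq2 called 3, sox21b and rsph9 lower and glula higher.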

How the data were processed

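The authors deposited whole-number counts per Ensembl gene and FPKM values for 6 libraries. Strand-specific libraries were made from polyadenylated RNA, per the labels' protocols. The submitters' processing notes list the build GRCz11 and the tools STAR (version 2.7.10a) and DESeq2 (version 1.38.3), without roles. How reads were counted, with what strand setting and on which annotation, is not given in the sources used here, so overlapping genes and paralogues are uncertain. The ratio of deposited counts to FPKM was checked, and it is a length per gene times a scale per library.

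The 66 genes were found on CPM over the raw library totals. The members, the 19 gene lists, the classes and the partner genes were all chosen with earlier results of these data known. Genes were named if they were markers of the set, stood on a list, or led their class by control level or by gap, and those beside a threshold were named too. This came to cover every member with a gene name. EdgeR 4.0.16 (R 4.3.3; filterByExpr, TMM, quasi-likelihood F test, two-sided) was fitted to all 6 libraries with the group as the only term, with Benjamini-Hochberg adjustment over 17803 genes and a threshold of 0.05. Log2 fold changes are morphant minus control, with a standard error (SE) taken as their size over the square root of F. DESeq2 1.42.0 was an alternative. The fit was also run on counts simulated from its own dispersions. The outcome is not given, and nothing here rests on it. Alternatives were other scalings, floors and folds, FPKM, removal of a length trend (lowess, span 0.3), each kind of control, a replicate block and each library left out; removal of the length trend without morphant 2 was added after seeing the data. At a total of 18626513 counts, 2 CPM is 37.3 counts. Gene names come from the file or, where stated, the reference gene table of another assembly, so no coordinates or sequences are given.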

Additional observations from a re-analysis of the deposited data

How the results depend on the processing

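The count of 66 genes stayed within 1.5 times under TMM sizes (48), median-of-ratios sizes (48), the removed length trend (78), a control floor of 1 CPM (99) and the non-injected controls alone (83). It moved to 39 on FPKM, 34 with a floor of 5 CPM, 224 with a fold of 1.5, 11 with a fold of 3, 242 with at least 3 counts in each control in place of the CPM floor, and 385 with the scrambled-injected control alone. With the length trend removed and morphant 2 left out, an alternative chosen after seeing the data, it was 352. Leaving out each library gave 75 to 373. Stricter floors and folds lower the count, and looser ones or fewer libraries raise it, by construction. For the other moves the cause was not tested.

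The number of genes called by edgeR over all genes was 5, all higher in morphants. It was 334 with DESeq2 (154 lower), 28 with no filter (5 lower), 0 with the non-injected controls alone, 0 with the scrambled-injected control alone, and 0 to 1534 with each library left out, the 1534 (792 lower) being without morphant 2. Same-numbered libraries had correlations of deviations from their group means of −0.29, −0.10 and 0.16, and differently numbered ones from −0.24 to 0.30. With n = 3 in each group these values cannot decide whether the replicate numbers pair the libraries. With the replicate number as a block the rule, applied within pairs, gave 116 genes and edgeR 0 calls.

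For 59 named members the log2 ratio of control to morphant mean was recomputed under 14 settings. Of 826 values 804 moved by less than the spread between replicates, 22 moved by more, and 0 changed sign, with a range from 1.05 to 5.08. The rule fixes this sign in every setting that only drops libraries, so it is no sign of stability. Depth limits the low morphant values: 15 members had 10 or fewer counts in a morphant library, which was morphant 1 in 14 of them.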

Other observations

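Of the 66 genes, 61 were placed by name among the protein-coding genes of the reference gene table (assembly GRCz12tu), on 22 chromosomes. There were 4 pairs with 10 or fewer protein-coding genes between them. On chromosome 23, the radial spoke gene lrrc23 and the laminin gene lamb2l had 3 genes between them, and cfap126 and lrrc23 had 5. On chromosome 14, bicc2 and pdgfrb had 6 between them, and on chromosome 13 the clone si:dkey-18j18.3 (cimip5) and fbln5 had 9. The files' own build is another one, and no meaning was tested for these positions.

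Several list genes outside the set came close to its condition. The retinoic acid binding protein gene crabp1b stood at 21.1, 12.6 and 13.3 CPM in controls 1 to 3 and at 5.64, 2.75 and 6.44 CPM in morphants 1 to 3, its lowest control being 1.95 times its highest morphant (log2 fold change −1.51, SE 0.45, edgeR adjusted p = 0.35). The neuronal gene isl2b stood at 4.11, 4.33 and 4.79 CPM in controls and at 2.201, 1.02 and 2.27 CPM in morphants, with a gap of 1.81 (log2 fold change −1.13, edgeR adjusted p = 0.48). The glutamate transporter gene slc17a6b stood at 6.90 to 9.59 CPM in controls and 3.72 to 4.19 CPM in morphants, with a gap of 1.65 (log2 fold change −0.99, edgeR adjusted p = 0.40). These genes were chosen after their values were seen. Others on the lists had larger gaps than slc17a6b, such as kcnh6a at 1.93 and ccdc103 at 1.89. Of the 27 tested genes on the synapse and channel list, 10 were below all controls and 1 above. The 1 above was the transmitter transporter gene slc6a5, with means of 2.32 CPM in controls and 4.53 CPM in morphants (log2 fold change 1.11, edgeR adjusted p = 0.40).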
